A study of Homo sapiens with 36 samples.

Results

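The genes described here are the 10 dual-specificity MAP kinase phosphatases that carry a kinase-binding domain, DUSP1, DUSP2, DUSP4, DUSP5, DUSP6, DUSP7, DUSP8, DUSP9, DUSP10 and DUSP16. They were chosen by gene name, and all 10 were found among the 66366 named genes of the deposited files. Their transcripts were measured in 36 libraries from 4 established non-small cell lung cancer lines. EGFR, the receptor, bears L858R in H3255, both L858R and T790M in H1975, and Ex19del and T790M in H820, and is wild type in A549. Each line was given, for 24 h, the anti-EGFR RNA aptamer MinE07 (a folded RNA that binds the receptor), the control aptamer C36 in its extended form, or vehicle, which was DPBS with magnesium, with 3 libraries per group. Aptamers were at 3 µM, and all groups were kept in 1% serum. A549 was grown in DMEM and the other lines in RPMI, so medium cannot be told apart from that line. Each line is also 1 background with 1 EGFR genotype, so genotype cannot be told apart from background. The series record names 3 biologically independent experiments.

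MAP kinases (ERK, JNK and p38) are switched on when a threonine and a tyrosine in their activation loop are phosphorylated, and these phosphatases remove both phosphates. DUSP1, DUSP2, DUSP4 and DUSP5 are nuclear enzymes whose genes are induced by growth factors or stress. DUSP6, DUSP7 and DUSP9 are cytoplasmic and prefer ERK, and DUSP8, DUSP10 and DUSP16 prefer JNK and p38. Several of the genes are themselves transcribed in response to ERK activity, which makes them feedback inhibitors of the pathway that EGFR drives. MinE07 was compared with C36 to ask which transcripts respond to an aptamer against EGFR beyond the response to a control aptamer.

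All lines expressed keratin 8, keratin 18 and CDH1. The epithelial markers EPCAM and keratin 19 were lowest in A549, at 4.85 to 6.71 and 3.06 to 4.18 FPKM. In the other lines they lay between 24.6 and 219.8 and between 138 and 458 FPKM. The lung lineage factor NKX2-1 was at 66.2 to 90.6 FPKM in H3255, 28.3 to 36.1 in H820 and 16.4 to 23.1 in H1975, and at most 0.0471 in A549. The alveolar markers NAPSA and SFTPB were at 153 to 188 and 3.17 to 3.65 FPKM in H3255, but at most 0.912 and 0.0733 in the other lines. The leukocyte genes PTPRC and CD3E and the endothelial gene VWF were at most 0.0603 FPKM in every library. The other leukocyte marker, CD14, was at 1.05 to 2.16 FPKM in H1975, H820 and A549 and at most 0.141 in H3255, and the endothelial markers PECAM1 and CDH5 reached 0.523 and 0.311 FPKM in H1975. Of the fibroblast markers, COL1A1 was at 4.92 to 6.46 FPKM in H1975, 2.56 to 3.15 in H3255 and at most 0.905 in the other lines. PDGFRB was at 0.782 to 1.32 FPKM in H1975 and at most 0.141 elsewhere, and COL3A1 was at most 0.306 in every library. FPKM is a gene's number of fragments after correction for gene length and for the size of the library. The files hold no counts, and the relative depth of the libraries ran from 0.590 to 1.38 of the median. In 2 of the H820 MinE07 libraries the summed FPKM was the lowest, and abundant mitochondrial genes were listed at 0. No phosphatase gene was listed at 0 in any library.

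In GENCODE 29 on GRCh38, DUSP1 lies at chr5:172768090-172771195, DUSP2 at chr2:96143166-96145440, DUSP5 at chr10:110497838-110511544 and DUSP6 at chr12:89347232-89353271. DUSP7 lies at chr3:52048919-52056550, DUSP8 at chr11:1554044-1571920, DUSP9 at chrX:153642492-153651326, DUSP10 at chr1:221701424-221742176 and DUSP16 at chr12:12474210-12562383. DUSP5 and DUSP9 are on the plus strand and the other 7 on the minus strand, and all 9 are protein-coding. DUSP1, DUSP6, DUSP8 and DUSP16 overlap a gene on the opposite strand (AC022217.3, AC024909.2, KRTAP5-AS1 and AC007619.1). The kit marks strand, but whether the authors' quantification used it is not given in the sources used here, so reads of each pair cannot be told apart. RefSeq windows before the start site (GRCh38.p14) were matched for 8 of the 10 genes, in 10 windows, while DUSP4 and DUSP5 had none. The 250 bases before the start are printed for 3 genes that answered MinE07 differently in H1975, where DUSP2 rose, DUSP7 fell and DUSP1 was not called. Capitals mark matches to 4 motifs searched on both strands, TGACGTCA (the cyclic AMP response element, CRE), TGANTCA (AP-1), CCGGAA (ETS) and the CArG box of serum response factor.
DUSP1 promoter, chr5:172771196-172771445, minus strand: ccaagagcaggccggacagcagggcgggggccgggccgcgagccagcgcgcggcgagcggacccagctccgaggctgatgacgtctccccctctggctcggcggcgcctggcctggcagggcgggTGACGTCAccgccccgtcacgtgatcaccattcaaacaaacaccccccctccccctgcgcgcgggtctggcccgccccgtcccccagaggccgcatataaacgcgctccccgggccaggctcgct
DUSP2 promoter, chr2:96145441-96145690, minus strand: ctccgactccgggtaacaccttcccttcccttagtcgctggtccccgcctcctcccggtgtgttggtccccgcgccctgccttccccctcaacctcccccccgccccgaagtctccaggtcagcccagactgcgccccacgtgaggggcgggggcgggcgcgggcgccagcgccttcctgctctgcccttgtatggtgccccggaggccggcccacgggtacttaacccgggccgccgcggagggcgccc
DUSP7 promoter, chr3:52056572-52056821, minus strand: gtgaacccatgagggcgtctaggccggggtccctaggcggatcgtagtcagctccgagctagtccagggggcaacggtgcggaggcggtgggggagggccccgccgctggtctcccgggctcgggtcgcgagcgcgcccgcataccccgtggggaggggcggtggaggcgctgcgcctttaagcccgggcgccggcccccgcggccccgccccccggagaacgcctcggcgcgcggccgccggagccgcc
The DUSP1 window holds 1 CRE, which begins 125 bases before the start, and the DUSP8 window holds 2, beginning 118 and 74 bases before it. No other window of these genes holds any of the 4 motifs. The DUSP6 window, however, lies inside the GENCODE gene and overlaps exons of DUSP6 and AC024909.2. The bases before the GENCODE start of DUSP6 were therefore not searched. A DUSP9 window and a DUSP10 window also overlap an exon of the same gene. Of 35116 RefSeq windows of this length, 1.65% hold the CRE, 6.57% AP-1, 14.5% the ETS motif and 1.16% a CArG box. The DUSP1 and DUSP7 windows overlap no GENCODE exon, and the DUSP2 window overlaps an exon of the non-coding gene AC012307.1. GC content was 74.4% in the DUSP1 window, 74.0% in DUSP2 and 78.4% in DUSP7.

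The lines differed in which phosphatase gene they expressed most. DUSP6, the ERK phosphatase of the cytoplasm, lay between 157 and 267 FPKM over the 9 libraries of H3255, between 4.36 and 7.26 in H1975, between 3.79 and 4.17 in A549, and between 0.0532 and 0.126 in H820. H3255 therefore stood above every other library, and H820 below. EGFR itself ran from 336 to 436 FPKM in H3255, 23.7 to 27.8 in H1975, 17.2 to 20.3 in A549 and 7.13 to 8.19 in H820. DUSP4, a nuclear phosphatase of ERK and JNK, had another order, with 46.1 to 49.4 FPKM in A549, 8.32 to 10.6 in H1975, 2.67 to 3.76 in H3255 and 0.0149 to 0.0456 in H820. Both feedback genes were thus below 0.13 FPKM in all 9 H820 libraries.

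**Figure D1:**
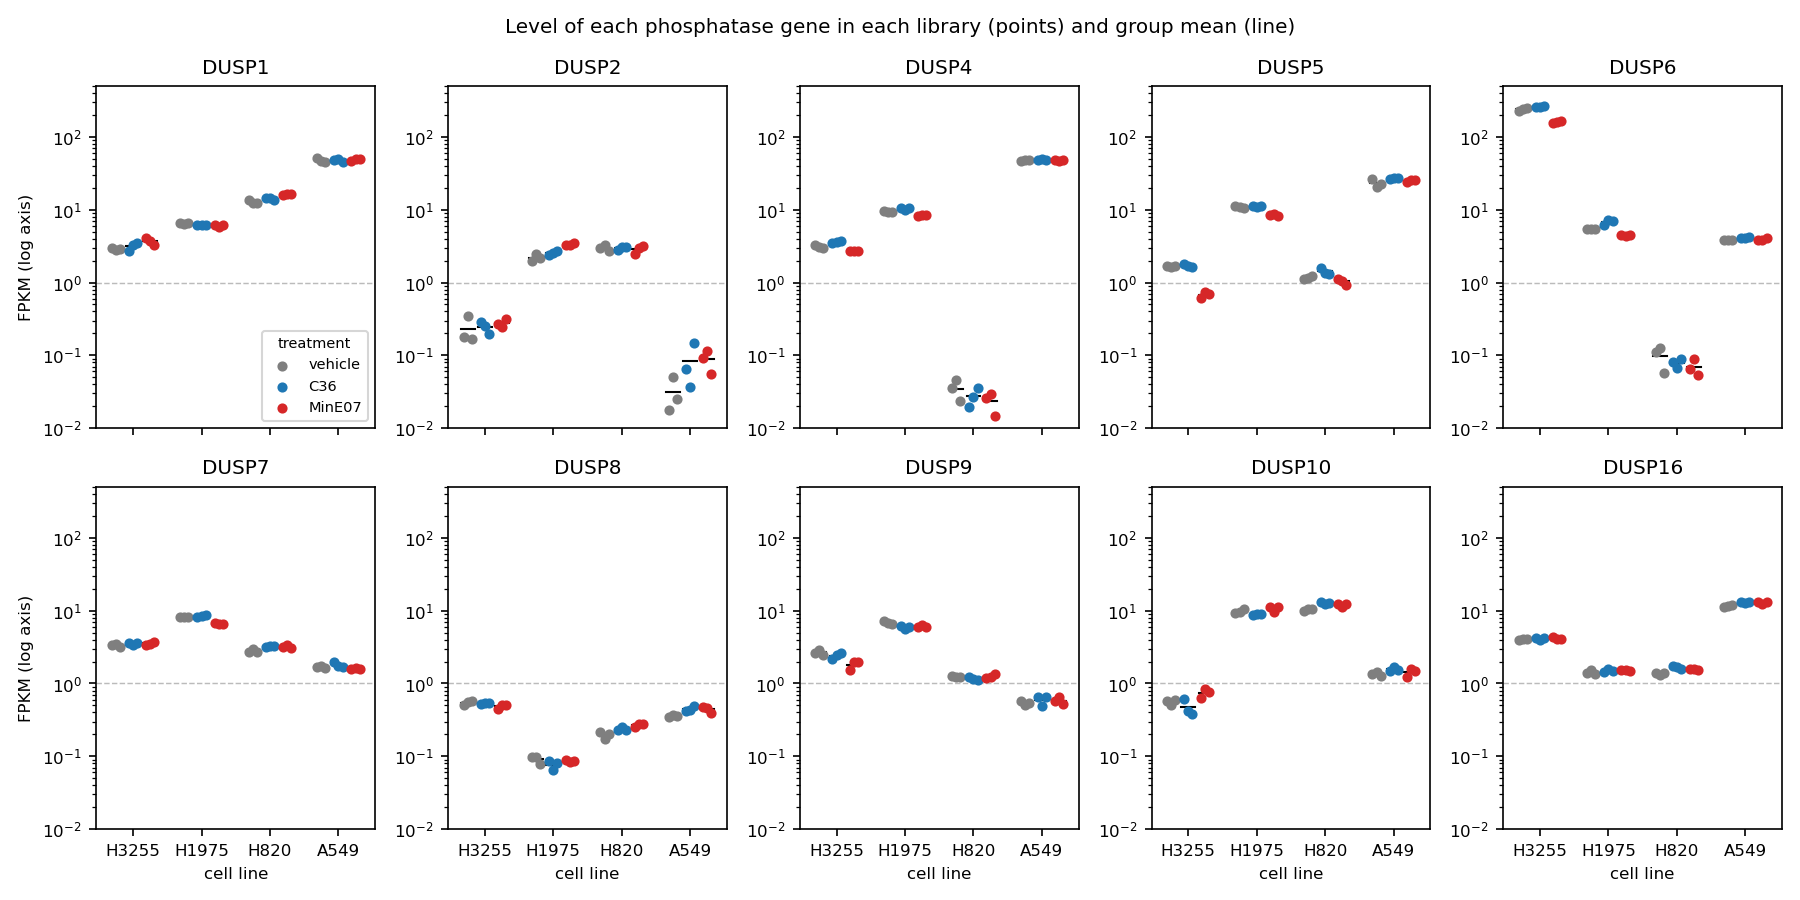
FPKM on a log axis (vertical) of each phosphatase gene in each of the 36 libraries, by cell line (horizontal) and treatment (colour). Points are libraries, short black lines are means of 3, and the dashed line marks 1 FPKM. DUSP6 stands at 157 FPKM or more in every H3255 library and at 0.126 or less in every H820 library.

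DUSP1, a stress-induced nuclear phosphatase, was at 45.3 to 51.8 FPKM in A549, 12.4 to 16.7 in H820, 5.71 to 6.56 in H1975 and 2.73 to 4.07 in H3255, and no 2 of these ranges overlapped. DUSP5, a nuclear phosphatase that acts on ERK alone, was at 20.8 to 27.1 FPKM in A549, 8.29 to 11.2 in H1975, 0.606 to 1.79 in H3255 and 0.921 to 1.58 in H820, and the last 2 ranges overlapped. DUSP2, best known from immune cells, was at 2.50 to 3.29 FPKM in H820 and 1.96 to 3.49 in H1975, and at most 0.347 in H3255 and 0.147 in A549. DUSP7 was highest in H1975, at 6.61 to 8.60 FPKM, then H3255 (3.22 to 3.72) and H820 (2.70 to 3.33), which overlapped, and A549 (1.57 to 1.96). DUSP9, the third cytoplasmic enzyme, followed the same order, with 5.63 to 7.20 FPKM in H1975, 1.52 to 2.91 in H3255, 1.12 to 1.36 in H820 and 0.485 to 0.659 in A549.

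Of the JNK and p38 phosphatases, DUSP10 was at 9.87 to 13.1 FPKM in H820 and 8.75 to 11.2 in H1975, which overlapped, and at 1.21 to 1.69 in A549 and 0.379 to 0.848 in H3255. DUSP16 was at 11.2 to 13.3 FPKM in A549 and 3.93 to 4.28 in H3255, while H820 (1.30 to 1.71) and H1975 (1.37 to 1.56) overlapped. DUSP8 was below 1 FPKM in every library, with at most 0.570 FPKM in H3255, 0.486 in A549 and 0.280 in H820, and it was the lowest of the 10 genes in H1975, at 0.0649 to 0.0987. The files list 3 further numbered copies of DUSP8 and 1 of DUSP16 at nearly the same values (DUSP16-2 was at 11.5 to 13.5 FPKM in A549). How reads were shared among copies is not given in the sources used here, so the levels of these 2 genes are uncertain.

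Vehicle libraries were compared between each pair of lines in limma, in 1 fit of all 36 libraries on log2(FPKM + 0.5), and a gene was called when its p, adjusted by Benjamini-Hochberg over all tested genes, was under 0.05. DUSP8 did not pass the filter, a mean of at least 1 FPKM. DUSP2, DUSP4, DUSP6, DUSP9 and DUSP10, each below 1 FPKM on average in at least 1 line, passed it through the lines where they were higher, so their calls between such lines follow from the filter and the counts carry no support. All 9 tested phosphatase genes were called in 5 of the 6 pairs, where 84.6% to 87.1% of all tested genes were called. Between H1975 and H820, 7 of 9 were called against 83.7% of all genes. DUSP10 differed there by -0.05 (95% interval -0.21 to 0.11, adjusted p 0.563) and DUSP16 by 0.06 (-0.02 to 0.14, adjusted p 0.154). After rescaling by medians of ratios, which lowered the median difference of all genes in this pair by 0.15, the DUSP10 difference became -0.22 and was called (adjusted p 0.00875). With its copy added, DUSP16 was called too (0.09, adjusted p 0.0438). DUSP6 was higher in H3255 than in H1975 by 5.34 log2 units (SE 0.045, adjusted p 6.39e-37) and than in A549 by 5.79 (adjusted p 4.42e-38). Since H820 lay under the pseudocount, its log2 differences understate those in FPKM. Shares near the background of all genes mean that such differences were as common among other genes.

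As a share of the summed FPKM of the 10 genes, DUSP6 made up 92.6 ± 0.368% in H3255 with vehicle (SD, n = 3). In A549 with vehicle the nuclear inducible genes DUSP1, DUSP2, DUSP4 and DUSP5 made up 86.0 ± 0.720%. Numbered copies are left out of these sums. DUSP16-2 was at 11.5 to 13.5 FPKM over the A549 libraries, and the share of the nuclear genes would be lower if it were added. In H820 DUSP1 held 38.8 ± 1.42% and DUSP10 31.2 ± 1.36%. H1975 was the most even, with 17.8 ± 0.408% for DUSP5, 16.3 ± 1.07% for DUSP10 and 15.5 ± 0.245% for DUSP4. The summed level was 258 ± 9.75 FPKM in H3255, 138 ± 4.43 in A549, 60.8 ± 0.208 in H1975 and 32.9 ± 0.409 in H820.

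**Figure D2:**
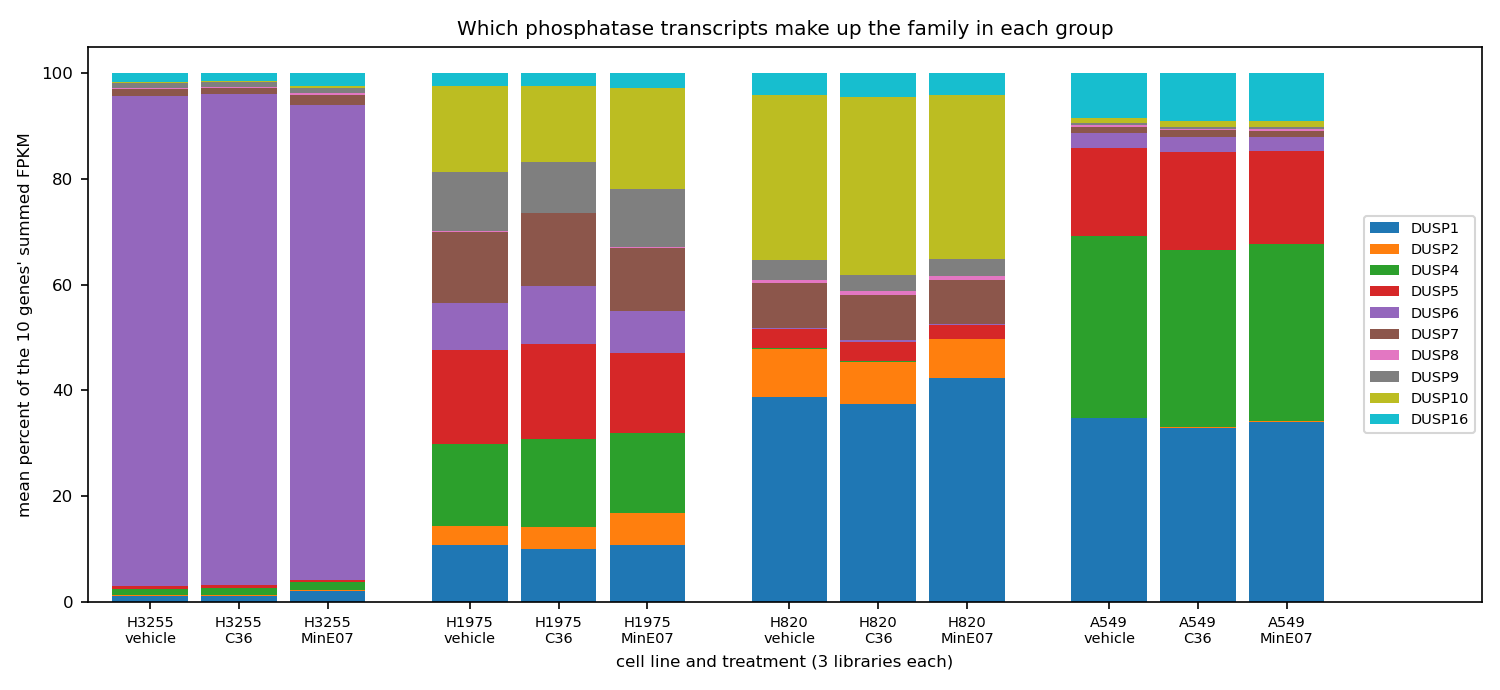
Mean percent of the 10 genes' summed FPKM (vertical, starting at 0) taken by each gene in the 12 groups of 3 libraries (horizontal). DUSP6 fills most of every H3255 bar (92.6% with vehicle, 89.9% with MinE07), while DUSP1 and DUSP10 lead in H820.

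In H3255, MinE07 lowered the nuclear genes DUSP4 and DUSP5 and the cytoplasmic genes DUSP6 and DUSP9, while the cytoplasmic gene DUSP7 was not called. DUSP6 was at 157, 161 and 165 FPKM with MinE07, 255, 259 and 267 with C36 and 229, 241 and 249 with vehicle. The MinE07 libraries lay below all 6 others. The mean fell by 38.2% against C36, and the log2 difference was -0.69 (SE 0.037, limma adjusted p 5.88e-07). DUSP5 was at 0.606, 0.737 and 0.696 FPKM with MinE07, 1.79, 1.66 and 1.64 with C36 and 1.69, 1.61 and 1.67 with vehicle. Again no MinE07 library reached the others, and the mean fell by 60.0% against C36 (log2 difference -0.90, SE 0.061, adjusted p 2.83e-06). All MinE07 libraries lay below all C36 libraries for 27.1% of all tested genes. With MinE07, DUSP5 was below 1 FPKM and passed the filter only through C36 and vehicle, and the pseudocount compresses its log2 difference. In bulk RNA, fewer expressing cells and less RNA per cell cannot be told apart.

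DUSP4 in H3255 was at 2.69, 2.72 and 2.67 FPKM with MinE07 against 3.53, 3.64 and 3.76 with C36, and its mean fell by 26.1% (log2 difference -0.38, SE 0.047, adjusted p 0.000168). DUSP9 was at 1.52, 1.99 and 1.95 FPKM with MinE07 against 2.15, 2.45 and 2.65 with C36, and fell by 24.7% (-0.33, SE 0.092, adjusted p 0.0168). Its MinE07 libraries all lay below its C36 libraries, as for 27.1% of all tested genes. The call was lost without MinE07 replicate 1 (adjusted p 0.0529), without C36 replicate 3 (0.0679) or with no filter on low values (0.0836). Thus 4 of 7 tested genes fell and 0 rose, where 36.7% of all 13429 tested genes were called, 16.6% higher and 20.0% lower. DUSP7 and DUSP16 differed by 0.00281 and 0.00932 on the log2 scale, with 95% intervals of -0.10 to 0.11 and -0.08 to 0.10.

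DUSP1 in H3255 was at 4.07, 3.69 and 3.24 FPKM with MinE07 against 2.73, 3.30 and 3.44 with C36, which overlapped, and a difference of 0.19 was not called (adjusted p 0.107). It was called when the spread was pooled over all lines (adjusted p 0.0172) or without MinE07 replicate 3 (0.26, adjusted p 0.0348). DUSP10 was below the filter. It was at 0.632, 0.848 and 0.768 FPKM with MinE07 against 0.618, 0.416 and 0.379 with C36, and these did not overlap, as for 49.9% of all tested genes. With the filter at 0.25 FPKM it was called higher by 0.37 (adjusted p 0.0219), and with no filter it was not (0.0700). DUSP2 and DUSP8, also below the filter, were at 0.275 ± 0.0361 and 0.490 ± 0.0357 FPKM with MinE07 against 0.246 ± 0.0454 and 0.533 ± 0.0133 with C36 (SD, n = 3).

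In H1975, 4 genes were lower with MinE07 than with C36 and 2 were higher. DUSP6 was at 4.43, 4.36 and 4.51 FPKM with MinE07, 6.09, 7.26 and 6.94 with C36 and 5.46, 5.42 and 5.41 with vehicle. The C36 libraries were above vehicle and the MinE07 libraries below it. Against C36 the mean fell by 34.4% (log2 difference -0.55, SE 0.055, adjusted p 0.000232). DUSP5 was at 8.51, 8.60 and 8.29 FPKM with MinE07 against 11.2, 11.0 and 11.2 with C36, and its mean fell by 23.9% (-0.38, SE 0.031, adjusted p 0.000111). DUSP7 was at 6.68, 6.61 and 6.64 FPKM with MinE07 against 8.30, 8.56 and 8.60 with C36, and fell by 21.7% (-0.33, SE 0.030, adjusted p 0.000153). DUSP4 was at 8.32, 8.53 and 8.58 FPKM against 10.6, 9.91 and 10.4, and fell by 17.8% (-0.27, SE 0.035, adjusted p 0.000896). For each of these 4 genes, all MinE07 libraries lay below all C36 libraries, as they did for 21.6% of all tested genes.

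The 2 genes that were higher with MinE07 than with C36 in H1975 were DUSP2 and DUSP10. DUSP2 was at 3.31, 3.25 and 3.49 FPKM with MinE07, 2.39, 2.53 and 2.74 with C36 and 1.96, 2.48 and 2.17 with vehicle, a rise of 31.2% over C36 (0.34, SE 0.073, adjusted p 0.0110). That call was lost with no filter on low values (adjusted p 0.0536). DUSP10 was at 11.1, 9.72 and 11.2 FPKM with MinE07 against 8.75, 8.86 and 9.13 with C36 (0.25, SE 0.060, adjusted p 0.0178), while vehicle, at 9.41, 9.67 and 10.7, overlapped MinE07. All C36 libraries lay below vehicle (-0.14, adjusted p 0.310), as for 10.1% of all tested genes. MinE07 differed from vehicle by 0.10 (adjusted p 0.251). The DUSP10 call against C36 was lost with no filter (0.0832), without MinE07 replicate 1 (0.0621) or 3 (0.0681) and without C36 replicate 1 (0.0595) or 2 (0.0571). In all, 6 of 9 tested genes were called, where 19.9% of 14183 tested genes were, 8.88% higher and 11.1% lower. DUSP1, DUSP9 and DUSP16 differed by -0.03, 0.06 and 0.01, with 95% intervals within -0.12 to 0.17. DUSP8 was below the filter, at 0.0856 ± 0.00274 FPKM with MinE07 and 0.0769 ± 0.0108 with C36.

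Markers of other cell types also moved in H1975. The 3 fibroblast markers summed to 7.74 to 7.79 FPKM with MinE07 and 5.98 to 6.84 with C36, and 2 of the 3, COL1A1 and PDGFRB, were called higher. The remaining marker, COL3A1, had a median of 0.00338 FPKM and at most 0.306 over the 9 libraries of the line. The 3 leukocyte markers summed to 1.86 to 1.94 FPKM against 1.25 to 1.70, nearly all of it CD14, while CD3E was listed at 0 in 7 of 9 libraries. The endothelial sum was 0.644 to 0.814 FPKM against 0.530 to 0.642. Vehicle libraries overlapped MinE07 in the leukocyte (1.77 to 2.23) and endothelial sums (0.647 to 0.670) and lay below it in the fibroblast sum (5.78 to 6.42). The part of other cell types in the phosphatase changes was not tested. In H3255 the ranges of all 3 sums overlapped between MinE07 and C36.

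In H820 and A549 no phosphatase gene was called between the aptamers by limma. In H820, 0 of 7 were called and 2 had an unadjusted p under 0.05, against 0.0364% (0.0218% higher and 0.0145% lower) and 10.2% of all genes. DUSP1 was at 15.8, 16.6 and 16.7 FPKM with MinE07 against 14.5, 14.3 and 13.4 with C36 (0.21, SE 0.041, adjusted p 0.218). These did not overlap, as for 17.1% of all tested genes. DUSP5 was at 1.12, 1.06 and 0.921 FPKM against 1.58, 1.37 and 1.31 (-0.32, SE 0.072, adjusted p 0.231), and was called when the spread was pooled over all lines (adjusted p 0.0182). DUSP4 and DUSP6, far below the filter, were at 0.0233 ± 0.00740 and 0.0695 ± 0.0189 FPKM with MinE07 and 0.0272 ± 0.00808 and 0.0790 ± 0.0105 with C36, and a difference was not detectable at such levels.

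In A549, 0 of 7 were called and 1 had an unadjusted p under 0.05, against 0.0% and 10.8% of all genes. DUSP6 was at 3.79, 3.80 and 4.07 FPKM with MinE07, 4.05, 4.08 and 4.17 with C36 and 3.82, 3.87 and 3.79 with vehicle, which overlapped. Its difference from C36 was -0.07, with a 95% interval of -0.16 to 0.03. DUSP4 differed by -0.04 (-0.11 to 0.04) and DUSP5 by -0.10 (-0.27 to 0.06). DUSP7 had the smallest p, with 1.57, 1.63 and 1.57 FPKM against 1.96, 1.76 and 1.70 (-0.14, adjusted p 0.432). DUSP9, below the filter, was at 0.584 ± 0.0718 FPKM with MinE07 against 0.590 ± 0.0912 with C36.

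**Figure D3:**
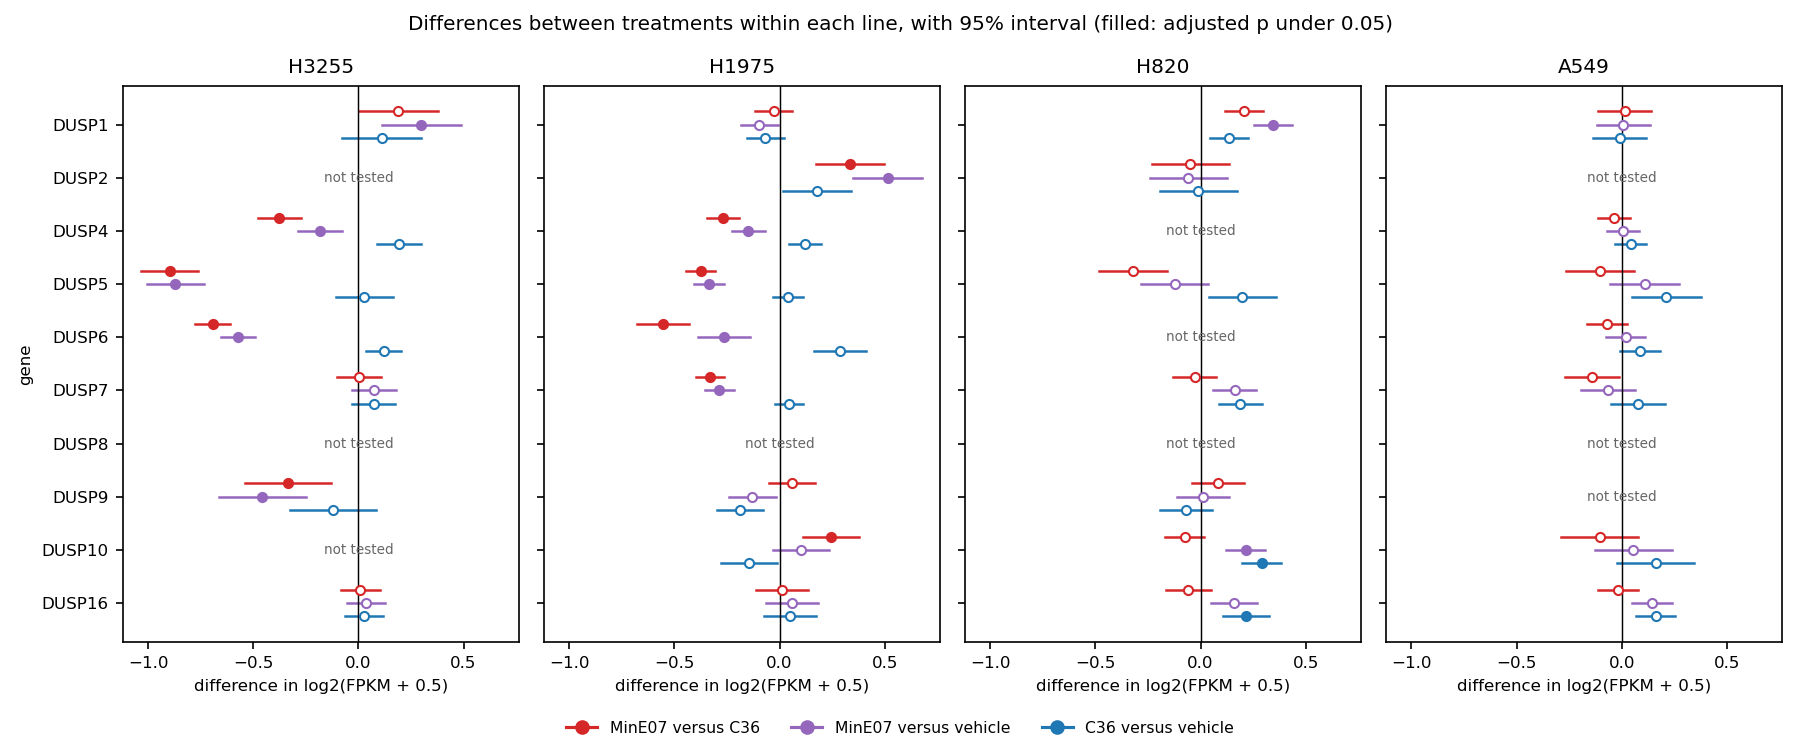
Differences in log2(FPKM + 0.5) (horizontal) of each phosphatase gene (vertical) for the 3 treatment comparisons in each line, with 95% intervals from limma on 9 libraries per line. Filled points have an adjusted p under 0.05. DUSP4, DUSP5 and DUSP6 have filled points left of 0 for MinE07 against C36 in H3255 and H1975, and no gene has a filled point for that comparison in H820 or A549.

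Against vehicle, too, MinE07 lowered DUSP4, DUSP5 and DUSP6 in both L858R lines. These comparisons share the MinE07 libraries with those above and are not independent of them. In H3255, 5 of 7 genes were called against 38.6% of all genes (21.4% higher and 17.2% lower). DUSP5 changed by -0.87, DUSP6 by -0.57, DUSP9 by -0.46 and DUSP4 by -0.18 (adjusted p 0.0106), and DUSP1 rose by 0.30 (adjusted p 0.0174). The DUSP1 call was lost without MinE07 replicate 1 (0.0628) or 2 (0.0517), without vehicle replicate 2 (0.0520) or with no filter (0.0835). In H1975, 5 of 9 were called against 23.7% of all genes (10.8% higher and 12.9% lower), with DUSP5 at -0.34, DUSP7 at -0.29, DUSP6 at -0.27, DUSP4 at -0.15 and DUSP2 at 0.51. DUSP6 fell by 18.4% against vehicle and, as above, fell by 34.4% against C36.

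In H820, MinE07 against vehicle called 2 of 7 genes, both higher, where 3.02% of all genes were called, 1.99% higher and 1.03% lower. DUSP1 rose from 12.8 ± 0.539 to 16.3 ± 0.492 FPKM (SD, n = 3; 0.34, SE 0.041, adjusted p 0.00228). DUSP10 was at 12.4, 11.4 and 12.2 FPKM with MinE07 and 9.87, 10.4 and 10.5 with vehicle (0.21, adjusted p 0.0268). Its call was lost without MinE07 replicate 1 (0.0702) or 3 (0.0968), without vehicle replicate 1 (0.0890) or 2 (0.0701), with no filter (0.129), without trend and robust moderation and with the spread pooled over lines (0.132). The pooled fit called DUSP7 (0.16, adjusted p 0.0155) and DUSP16 (0.16, adjusted p 0.0148) instead. In A549, 0 of 7 were called, 1 had an unadjusted p under 0.05 (13.9% of all genes did) and 0.216% of all genes were called (0.119% higher and 0.0968% lower). That gene was DUSP16, at 13.3, 12.4 and 13.0 FPKM against 11.2, 11.6 and 12.1 (0.14, adjusted p 0.182), which was called in the pooled fit (0.0254). DUSP5 was called there without vehicle replicate 1 (0.21, adjusted p 0.0347).

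The control aptamer alone was compared with vehicle as the background of the design. In H3255 and H1975 limma called 0 of 7 and 0 of 9 phosphatase genes, where 0.305% (0.164% higher and 0.141% lower) and 0.233% (0.0423% higher and 0.19% lower) of all genes were called, and 2 and 5 of the phosphatase genes had an unadjusted p under 0.05, against 15.9% and 14.3% of all genes. The lowest adjusted p was that of DUSP6 in H1975, which was 24.5% higher with C36 (0.29, SE 0.055, adjusted p 0.0629). DUSP4 was 16.5% higher in H3255 (0.19, adjusted p 0.102) and 9.24% higher in H1975 (0.12, adjusted p 0.164). When the spread was pooled over all lines, DUSP4 was called in H3255 (adjusted p 0.000642) and both DUSP4 (0.0454) and DUSP6 (0.000737) in H1975.

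In H820, C36 called 2 of 7 genes higher than vehicle, where 2.85% of all genes were called, 1.56% higher and 1.29% lower. DUSP10 rose from 10.3 ± 0.352 to 12.7 ± 0.451 FPKM (0.29, SE 0.041, adjusted p 0.00799), a call lost with no filter (0.0651). DUSP16 was at 1.71, 1.66 and 1.57 FPKM against 1.38, 1.30 and 1.38 (0.21, adjusted p 0.0482), and that call was lost without any 1 of the 9 libraries of the line (adjusted p 0.0661 to 0.170). DUSP7 was 16.5% higher (0.19, adjusted p 0.0590) and was called in the pooled fit (0.00406). In A549, 0 of 7 were called and 2 had an unadjusted p under 0.05 (23.5% of all genes did), where 6.0% of all genes were called (3.62% higher and 2.38% lower). DUSP16 was higher by 0.16 (adjusted p 0.0540) and DUSP5 by 0.21 (0.117). Both were called in the pooled fit (0.00388 and 0.0160), and DUSP5 also without vehicle replicate 1 (0.31, adjusted p 0.00331).

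Interaction terms in the fit of all 36 libraries compared the lines' responses to MinE07, each term being the log2 difference between MinE07 and C36 in 1 line minus that in another. Genes entered by their mean over all libraries, so DUSP2 and DUSP10 in H3255, DUSP4 and DUSP6 in H820, and DUSP2 and DUSP9 in A549 are part of these terms at levels below 1 FPKM, where the pseudocount of 0.5 compresses a difference. DUSP5 in H3255 was below 1 FPKM with MinE07 (0.606 to 0.737), so its terms are compressed too. H3255 minus A549 called 5 of 9 genes against 25.2% of all 14572 (11.3% higher and 14.0% lower). DUSP5 was at -0.80 (SE 0.085, adjusted p 4.20e-08), DUSP6 at -0.62 (SE 0.064, adjusted p 1.66e-08), DUSP4 at -0.34, DUSP9 at -0.33 and DUSP10 at 0.47. The DUSP9 call (adjusted p 0.0199) was lost with no filter (0.0529), without H3255 MinE07 replicate 1 (0.0882) or C36 replicate 3 (0.0727), and without replicate 2 of A549 MinE07 (0.0623) or C36 (0.0782). H1975 minus A549 called 5 of 9 against 12.6% (5.75% higher and 6.88% lower), with DUSP6 at -0.49 (adjusted p 7.20e-06), DUSP5 at -0.27, DUSP4 at -0.23, DUSP7 at -0.19 and DUSP10 at 0.35. The calls of DUSP5, DUSP7 and DUSP10 in that term had adjusted p of 0.0328, 0.0224 and 0.0335 and were lost when single libraries were left out (9, 4 and 6 of them, respectively), DUSP5 reaching 0.0707 without H1975 MinE07 replicate 3, DUSP7 0.0769 without A549 C36 replicate 3 and DUSP10 0.113 without A549 MinE07 replicate 1. The DUSP10 terms include the A549 values, at 1.21, 1.60 and 1.48 FPKM with MinE07 and 1.48, 1.69 and 1.53 with C36.

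H820 minus A549 called 0 of 9 in limma, where 0.323% of all genes were called (0.11% higher and 0.213% lower). For DUSP4 and DUSP6 on the H820 side, and DUSP2 and DUSP9 on the A549 side, the levels were too low for this term to show a difference. An unadjusted p under 0.05 was found for 2 genes, against 12.3% of all genes (DUSP1 at 0.19 and DUSP5 at -0.22). The 2 L858R lines also differed from each other, with 3 of 9 called against 15.2% of all genes (6.74% higher and 8.48% lower). DUSP5 fell further in H3255 than in H1975 (-0.52, SE 0.085, adjusted p 4.88e-05). DUSP9 differed by -0.39 (adjusted p 0.00820) and DUSP7 by 0.33 (adjusted p 6.91e-05), DUSP9 being the one called in H3255 and DUSP7 the one called in H1975. For DUSP6 the difference between these lines was -0.14 (95% interval -0.27 to -0.01, adjusted p 0.155), called at a pseudocount of 1 (adjusted p 0.0217) or without H1975 C36 replicate 2 (0.0453). The average response of H3255 and H1975, less that of H820 and A549, called 4 of 9 against 24.5% (10.1% higher and 14.3% lower), with DUSP6 at -0.58, DUSP5 at -0.42, DUSP4 at -0.30 and DUSP10 at 0.40. In H820, DUSP4 and DUSP6 lay so far under the pseudocount that their log2 differences could hardly leave 0 (-0.01 and -0.02). A response held near 0 there can enlarge the term, so their calls carry no support for a difference from H820. DUSP10 was below 1 FPKM in H3255.

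**Figure D4:**
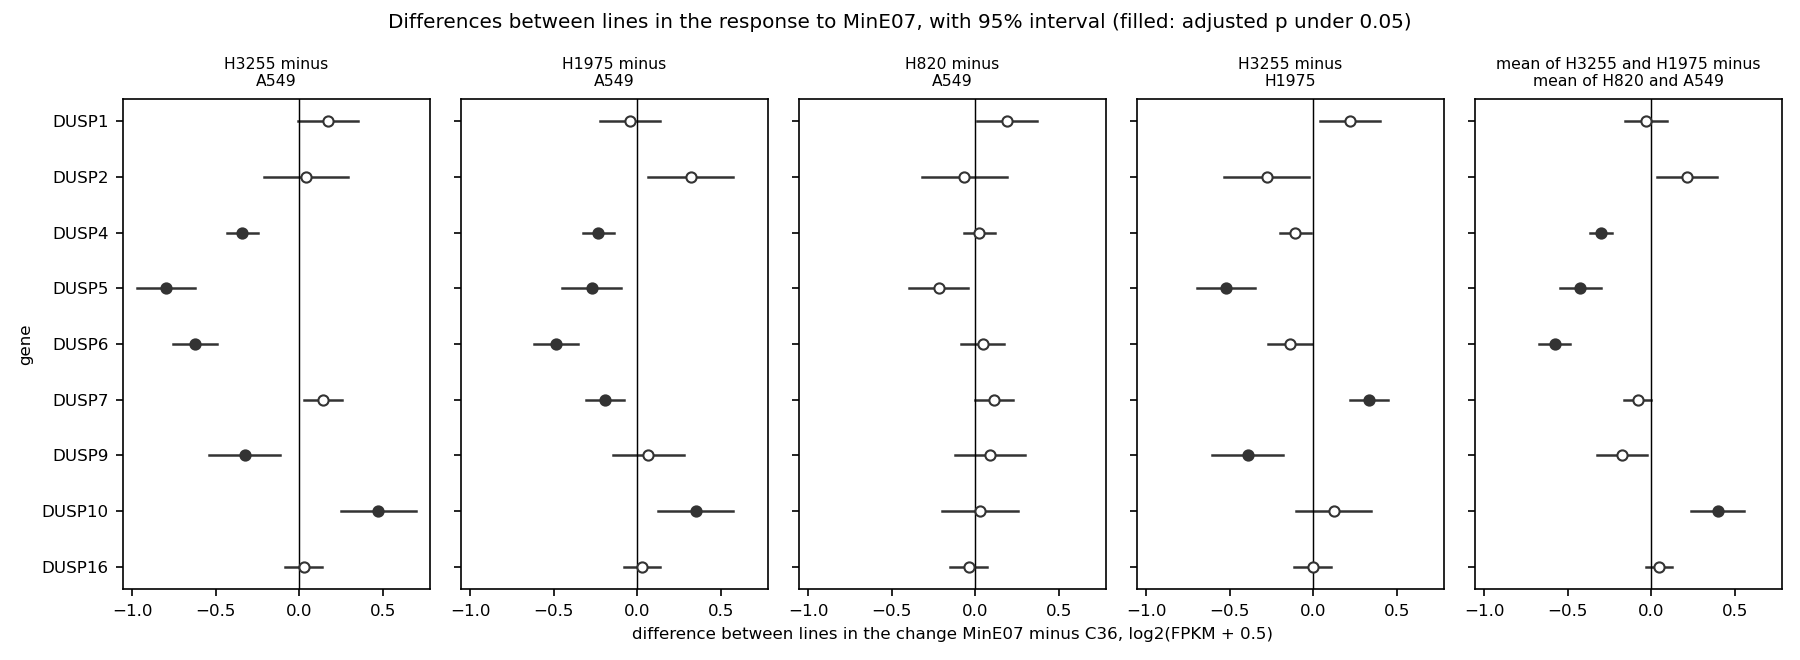
Difference between lines in the log2 change from C36 to MinE07 (horizontal) for the 9 tested phosphatase genes (vertical), 1 panel per term, with 95% intervals from limma on 36 libraries. Filled points have an adjusted p under 0.05. DUSP4, DUSP5 and DUSP6 are filled and negative in both L858R lines against A549, and no point is filled for H820 minus A549.

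Other genes of the pathway were described from lists, to be read against the 36.7% of all tested genes called in H3255 (20.0% lower), 19.9% in H1975 (11.1% lower), 0.0364% in H820 and 0.0% in A549. The lists were chosen with earlier results of these data known, so a count above those shares carries no support. Of 15 genes transcribed after ERK activity (Sprouty and Spred inhibitors, ETS factors and other feedback or growth genes), 13 were tested in each line. In H3255 all 13 were called, 12 lower and 1, SPRY2, higher, and the median log2 change was -0.59. EGR1, an immediate early transcription factor, had the largest fall there (-0.92, SE 0.059, adjusted p 1.97e-06), while SPRY2 changed by 0.08. Below the filter in H3255, SPRED3 was at 0.287 ± 0.0454 FPKM with MinE07 against 0.185 ± 0.0178 with C36. IL11, also below it, was at 0.0486 ± 0.00769 against 0.133 ± 0.0105. In H1975, 11 of 13 were called lower, with a median of -0.46 over the 13, led by SPRY4 (-0.67, adjusted p 0.000122). In H820, 1 of 13, EGR1, was called lower (-0.78, adjusted p 0.00165), and 5 had an unadjusted p under 0.05, against 10.2% of all genes. In A549 0 of 13 were called and 7 had an unadjusted p under 0.05, against 10.8% of all genes. Called or not, 13 of 13 had a lower mean log2 level with MinE07 in H820 (median -0.12). In A549 12 were lower and 1 higher (median -0.12). The median over all genes was between -0.01 and 0.01 in each line. The phosphatase genes' own medians were -0.33 in H3255 over 7 tested genes, -0.03 in H1975 over 9, -0.05 in H820 over 7 and -0.07 in A549 over 7. Against vehicle, MinE07 called 12 of the 13 genes after ERK activity in H3255 (11 lower, median -0.50) and 12 in H1975 (12 lower, median -0.24). It called 3 in H820 (3 lower, median -0.09) and 0 in A549 (5 higher, 8 lower, median -0.02). Of all genes, 38.6%, 23.7%, 3.02% and 0.216% were called. C36 against vehicle called 1, 1, 3 and 3 of 13 in these lines, all higher, against 0.305%, 0.233%, 2.85% and 6.0%.

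The MAP kinases are the substrates of these phosphatases. Of 9 tested MAP kinase genes, 4 fell in H3255 (MAPK13, MAPK12, MAPK9 and MAPK14, by 0.14 to 0.20 on the log2 scale), where 36.7% of all genes were called. In H1975, MAPK7 fell by 0.19 and MAPK3, which encodes ERK1, rose by 0.15 (adjusted p 0.0197), where 19.9% of all genes were called. In H820 0 of 9 and in A549 0 of 8 were called. There, 1 and 0 had an unadjusted p under 0.05, against 10.2% and 10.8% of all genes. Of the RAF and MAP2K kinases upstream, 3 of 9 were called in H3255 and 2 of 9 in H1975, shares near the 36.7% and 19.9% of all genes. MAP2K1, the ERK kinase MEK1, fell in both (-0.59, adjusted p 2.11e-06, and -0.22, adjusted p 0.00250). Of 13 atypical dual-specificity phosphatases found, which lack the kinase-binding domain, 9 were tested in each line, and 3 were called in H3255 and 1 in H1975, again not above those shares of all genes. In H3255 DUSP3 fell by 0.16 on the log2 scale and DUSP22 and DUSP18 rose by 0.21 and 0.18, and in H1975 DUSP14 fell by 0.19. In H820 and A549, 0 of 9 were called, with 1 and 2 at an unadjusted p under 0.05, against the same 10.2% and 10.8% of all genes. Of the tyrosine phosphatases PTPN5, PTPN7 and PTPRR, 1 was tested in H1975, none of them elsewhere, and 0 were called.

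With the mean of each line removed, Pearson's r over the 36 libraries was 0.88 between DUSP4 and DUSP6, 0.85 between DUSP5 and DUSP6 and 0.76 between DUSP4 and DUSP5. The other cytoplasmic ERK phosphatases were less like DUSP6, with r of 0.46 for DUSP9 and 0.36 for DUSP7, and r between those 2 was -0.08. DUSP10 went the other way from DUSP6, with r of -0.62, and DUSP16 had r of -0.06 with it. These describe libraries that share treatment groups, and no test was made. The genes most like each phosphatase by the same measure, out of all that passed the filter, were SPRY4 (0.96), LMNB2 (0.92) and PRNP (0.92) for DUSP6, and SPRY4 (0.91), PRNP (0.88) and GALNT10 (0.87) for DUSP4. For DUSP5 they were AREG (0.94), TOP1 (0.93) and SPRED2 (0.93), for DUSP7 COA7 (0.84), SH2B3 (0.82) and TMEM158 (0.81), and for DUSP10 ATP8B2 (0.77), PTCH1 (0.75) and FSTL1 (0.72). DUSP9 was closest to FOXA2 (0.81) and DUSP2 to DDR1-5 (0.79), a numbered copy of DDR1.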

How the data were processed

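Poly-A RNA was made into stranded libraries and read as pairs of 100 bases, per the labels' protocols. The authors deposited FPKM per gene, 1 file per library. The submitters' processing notes name HISAT2, Cuffdiff and GRCh38.p12 without roles or versions, and the sources used here give no strand setting or annotation. FPKM carries no counts, so absolute depth is unknown and low values have no counting interval. Relative depth was computed from steps between low values (closing to 0.004 log2). Of 68271 entries, 1874 without a name and 31 with repeated names were left out (at most 0.00279% of summed FPKM).

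Values were analysed as log2(FPKM + 0.5) where a gene's mean over the fitted libraries was 1 FPKM or more. Fold changes are on that scale and understate those of low genes. The 9 libraries of each line entered a limma model (version 3.58.1, statmod 1.5.0, in R 4.3.3) of 3 groups, with intensity trend and robust moderation, two-sided, and Benjamini-Hochberg adjustment over all tested genes. Interaction terms and vehicle contrasts came from 1 fit of all 36 libraries. The script was tested on simulated data. All 10 genes were named, and of each list the called genes with the largest and smallest change in H3255 and H1975, besides counts of 5 or fewer, whose genes were named after their values were seen. The genes and lists were chosen with earlier results of these data known. Alternatives changed the pseudocount, filter, scaling, moderation, replicate block, copies and libraries. The sum over copies was added after seeing the data. Values were handled in Python 3.11.15 with pandas 2.3.3.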

Additional observations from a re-analysis of the deposited data

Results flagged for a closer look

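The following differences between lines in the response to MinE07 against C36 passed the interaction test in limma (log2 scale, 36 libraries, adjusted p under 0.05). For H3255 minus A549 they were -0.34 for DUSP4, -0.80 for DUSP5, -0.62 for DUSP6, -0.33 for DUSP9 and 0.47 for DUSP10. For H1975 minus A549 they were -0.23 for DUSP4, -0.27 for DUSP5, -0.49 for DUSP6, -0.19 for DUSP7 and 0.35 for DUSP10. Between the L858R lines, H3255 minus H1975, they were -0.52 for DUSP5, 0.33 for DUSP7 and -0.39 for DUSP9. For the mean of both L858R lines minus the mean of H820 and A549 they were -0.30 for DUSP4, -0.42 for DUSP5, -0.58 for DUSP6 and 0.40 for DUSP10. DUSP10 in H3255, DUSP9 in A549, and DUSP4 and DUSP6 in H820 were below 1 FPKM and entered these terms only through their levels in other lines. DUSP5 in H3255 was below 1 FPKM with MinE07. In the last term, the DUSP4 and DUSP6 calls carry no support for a difference from H820, where both lay under the pseudocount. As given above, single libraries left out ended the calls of DUSP9 in H3255 minus A549. They also ended those of DUSP5, DUSP7 and DUSP10 in H1975 minus A549. The culture medium of A549 differed and cannot be told apart from that line in the terms that use it.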

How the results depend on the processing

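Of 6165 log2 differences of single phosphatase genes recomputed under alternatives, 6017 kept both their direction and their side of the threshold, and no called value reversed. Of those 6017, 4275 came from leaving out 1 library. Where that library was in no group of the comparison, the log2 difference could not change, and only the adjusted p could. The 6017 is therefore no measure of how stable the differences are. Counts of called phosphatase genes that moved by over 1.5 times, or from 0, are given first. Fitting all 36 libraries gave 1 for C36 against vehicle in H3255 (from 0), 2 in H1975 (from 0) and 2 in A549 (from 0), 1 for MinE07 against vehicle in A549 (from 0) and 1 for MinE07 against C36 in H820 (from 0). MinE07 against vehicle in H820 gave 1 (from 2) with no filter, without trend and robust moderation, and with a replicate block. C36 against vehicle in H820 gave 0 (from 2) with no filter and 1 with the filter at 0.25, medians of ratios, without further copies, and with a replicate block. H1975 minus A549 gave 2 (from 5) at a pseudocount of 0.1 and 3 with no filter. Leaving out 1 library gave 1 to 2 for MinE07 against vehicle in H820, 1 throughout for C36 against vehicle there, 0 to 1 for either aptamer against vehicle in A549 (1 without vehicle replicate 1) and 2 to 5 for H1975 minus A549, where 2 came without H1975 C36 replicate 2. Smaller moves included MinE07 against C36 with no filter (4 from 6 in H1975, 3 from 4 in H3255) and in the fit of all libraries (6 from 4 in H3255), and both aptamers against vehicle in H820 in that fit (3 from 2).

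Replicate numbers were not used as pairs in the main fits. Same-numbered libraries had correlations of residuals from -0.16 to 0.25, and no comparison had all 3 above 0.1. Low correlations cannot show whether same-numbered libraries came from the same experiment. The replicate block also ended the call of DUSP5 in H1975 minus A549 (-0.27, adjusted p 0.0583), besides DUSP10 and DUSP16 in H820.

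Counts over all genes, the background, moved too. The 41 called for C36 against vehicle in H3255 became 4 (without vehicle replicate 3) to 369, the 33 in H1975 0 to 270 (214 without vehicle replicate 1), the 392 in H820 82 to 576 (90 without C36 replicate 1) and the 805 in A549 103 (without C36 replicate 3) to 2260. For MinE07 against vehicle the 415 in H820 became 125 to 581 (151 without vehicle replicate 2), the 29 in A549 0 to 659 (368 without vehicle replicate 1) and the 3364 in H1975 2073 to 3754. For MinE07 against C36 the 2829 in H1975 became 1722 (without C36 replicate 2) to 3272, the 5 in H820 1 to 19 and the 0 in A549 0 to 230, and the 47 for H820 minus A549 14 (without A549 C36 replicate 3) to 118 (without A549 vehicle replicate 1). The highest counts came mostly from the fit of all libraries. Without a filter, vehicle contrasts called up to 21897 genes. Rescaling by medians of ratios moved the percent of calls that were higher, for C36 against vehicle, from 60.4% to 46.7% in A549 and from 53.7% in H3255 to 22%, and from 55.4% to 39.3% and 66.0% to 55.1% for MinE07 against vehicle in H3255 and H820. It moved that share from 34.0% to 23.2% for H820 minus A549 and from 61.9% to 51.0% for vehicle, H1975 minus A549. The files give no counts, so the precision of the lowest genes (DUSP8 everywhere, DUSP4 and DUSP6 in H820, DUSP2 in A549) cannot be set.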
